A study of Mus musculus with 6 samples.

Results

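The genes described here are Foxc1, Foxc2, Foxd1, Foxd2 and Foxd2os, 5 of the 25595 genes counted in single cells of mouse stembryos. They were chosen by name from values per cell cluster, time and library, so their levels are given as a description, without p-values. Stembryos are aggregates of wild-type mouse embryonic stem cells that elongate and form trunk tissues in culture. The libraries were whole stembryos at 120 h after aggregation (2 libraries), whole stembryos at 96 h (2 libraries), and the posterior and the anterior part of a further pool at 120 h (1 library each). Stembryos without elongation at 120 h had been set aside, each library was a pool of stembryos, all came from embryonic stem cells in culture, and nothing in the labels tells whether replicate libraries are independent cultures. Libraries held 2649 to 7887 of the 26968 cells, with 24303317 to 117580506 UMIs, the counted transcript molecules. Replicate 1 of both times was in batch 1 and replicate 2 in batch 4, while the parts were in batch 2. Batch 4 was made with the V3.1 chemistry and the others with V3, so the replicate number marks chemistry as well as batch. In all, 75 cell barcodes occurred in more than 1 library, which touches 150 cells.

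Forkhead factors bind DNA through a winged-helix domain and act in the patterning of many tissues. In the mouse embryo, Foxc1 and Foxc2 are expressed in presomitic mesoderm (PSM) and somites, where they act together in segmentation and in the choice of paraxial fate. Foxd1 is best known from the stroma of the kidney, and Foxd2 is expressed in paraxial mesoderm and kidney. Foxd2os is a transcript read in the direction opposite to Foxd2. Trunk mesoderm matures along a path of PSM, determination front, where the next segment boundary is set, and somite, and the authors' cell annotation has a cluster or more, called Fates, for each: Early PSM, Late PSM, Determination front, Somite A and Somite B. Each of the 12 Fates ranked 1 to 3 in the summed level of its own marker list, and the determination front ranked 1 for its 5 markers. Spinal cord A and B each had 1 of 8 markers below 1 UMI per 1000000 UMIs (CPM). The determination front led narrowly in its own markers, with 234.5 CPM against 214.8 CPM in Late PSM. In somite markers it had 1796.8 CPM, near Somite A (1802.4 CPM) and above Somite B (1626.7 CPM). Values are given for the 30 combinations of Fate and library with at least 50 cells, as CPM with exact 95% intervals that cover counting error only. The germ-like and pluripotent Fate had no library with 50 cells.

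Each of the 4 coding genes has a single exon in the GENCODE annotation of GRCm38, the assembly the authors' mm10 alignment used. Foxc1 lies at chr13:31806633-31812476 on the plus strand and Foxd1 at chr13:98354242-98359305 on the same strand. Foxc2 lies at chr8:121116171-121118895 on the plus strand, inside the span of the model Gm20388 of the same strand, which has 0 exons over Foxc2 and is not a row of the table. Foxd2 lies at chr4:114906282-114908873 on the minus strand. Foxd2os starts 383 bases away on the plus strand and spans chr4:114909257-114921967 with 4 or 5 exons, so that the 2 genes point away from each other and do not overlap.

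Upstream sequence is shown for the 3 members found in the RefSeq promoter table (GRCm38.p6), because Foxd2 shares its upstream stretch with Foxd2os and the other 2 differ in the Fate at which their levels begin. Each line runs 5′ to 3′ on the gene's own strand, with the 235 bases from -250 to -16 of the RefSeq start, and capitals mark matches on either strand. The motifs searched were the CCAAT box (CCAAT), the TATA motif (TATAA), the GC box (GGGCGG), the forkhead core (TGTTTAC), the RBPJ site (GTGGGAA) and a T-box half-site (TCACACCT), none of which overlapped another. The windows are chr13:31806396-31806630 for Foxc1, chr13:98353995-98354229 for Foxd1 and chr4:114908914-114909148 for Foxd2.
Foxc1: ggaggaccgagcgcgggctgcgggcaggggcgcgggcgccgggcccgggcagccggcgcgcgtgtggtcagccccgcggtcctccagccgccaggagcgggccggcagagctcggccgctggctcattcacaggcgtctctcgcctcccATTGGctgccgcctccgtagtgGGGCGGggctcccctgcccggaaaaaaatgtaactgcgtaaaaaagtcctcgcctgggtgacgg
Foxd1: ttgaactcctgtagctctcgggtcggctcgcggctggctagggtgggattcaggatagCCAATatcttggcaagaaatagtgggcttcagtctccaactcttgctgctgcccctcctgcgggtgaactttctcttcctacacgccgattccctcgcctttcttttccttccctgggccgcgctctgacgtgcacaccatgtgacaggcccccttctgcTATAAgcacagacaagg
Foxd2: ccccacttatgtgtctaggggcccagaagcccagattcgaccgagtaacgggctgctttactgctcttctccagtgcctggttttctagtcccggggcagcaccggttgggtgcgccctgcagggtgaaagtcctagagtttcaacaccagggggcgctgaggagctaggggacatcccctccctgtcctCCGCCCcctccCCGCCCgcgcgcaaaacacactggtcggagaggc
The Foxd1 window held the CCAAT box and, 32 to 28 bases before the start, the TATA motif, letters found in 32.6% and 22.1% of all 32851 windows. The Foxc1 window held the CCAAT box on the opposite strand and a GC box. The Foxd2 window held the GC box on the opposite strand at 2 places, letters found in 30.6% of windows. The forkhead core, the RBPJ site and the T-box half-site, found in 2.97%, 5.05% and 1.05% of windows, had no match in these windows. The ratio of observed to expected CpG was 0.925 for Foxc1, 0.594 for Foxd1 and 0.553 for Foxd2, against a median of 0.371 over all windows. The far end of the Foxd2 window lies 108 bases from the annotated start of Foxd2os.

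The 5 genes had high levels in the same branch of the stembryo but began at different points of it. Over all libraries, the 5 mesoderm Fates held 48.2% of the cells, but between 90.6% (Foxd2os) and 95.4% (Foxc2) of each gene's UMIs. These pooled shares include the anterior part, where 99.0% of cells were in mesoderm Fates. In the posterior part the share was 46.3% for Foxd2os and 65.3% for Foxd2, and in 96 h replicates 1 and 2 it was 43.9% and 11.6% for Foxd1 and 60% and 12.2% for Foxd2os, from few UMIs. Foxc1 was already near 100 CPM in Early PSM, Foxc2 was highest in the determination front, Foxd1 was at 12.1 CPM or less in PSM and highest in the determination front, and Foxd2 and Foxd2os were highest in Somite A. The Fates are clusters of these same cells, so none of these differences was tested.

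**Figure D1:**
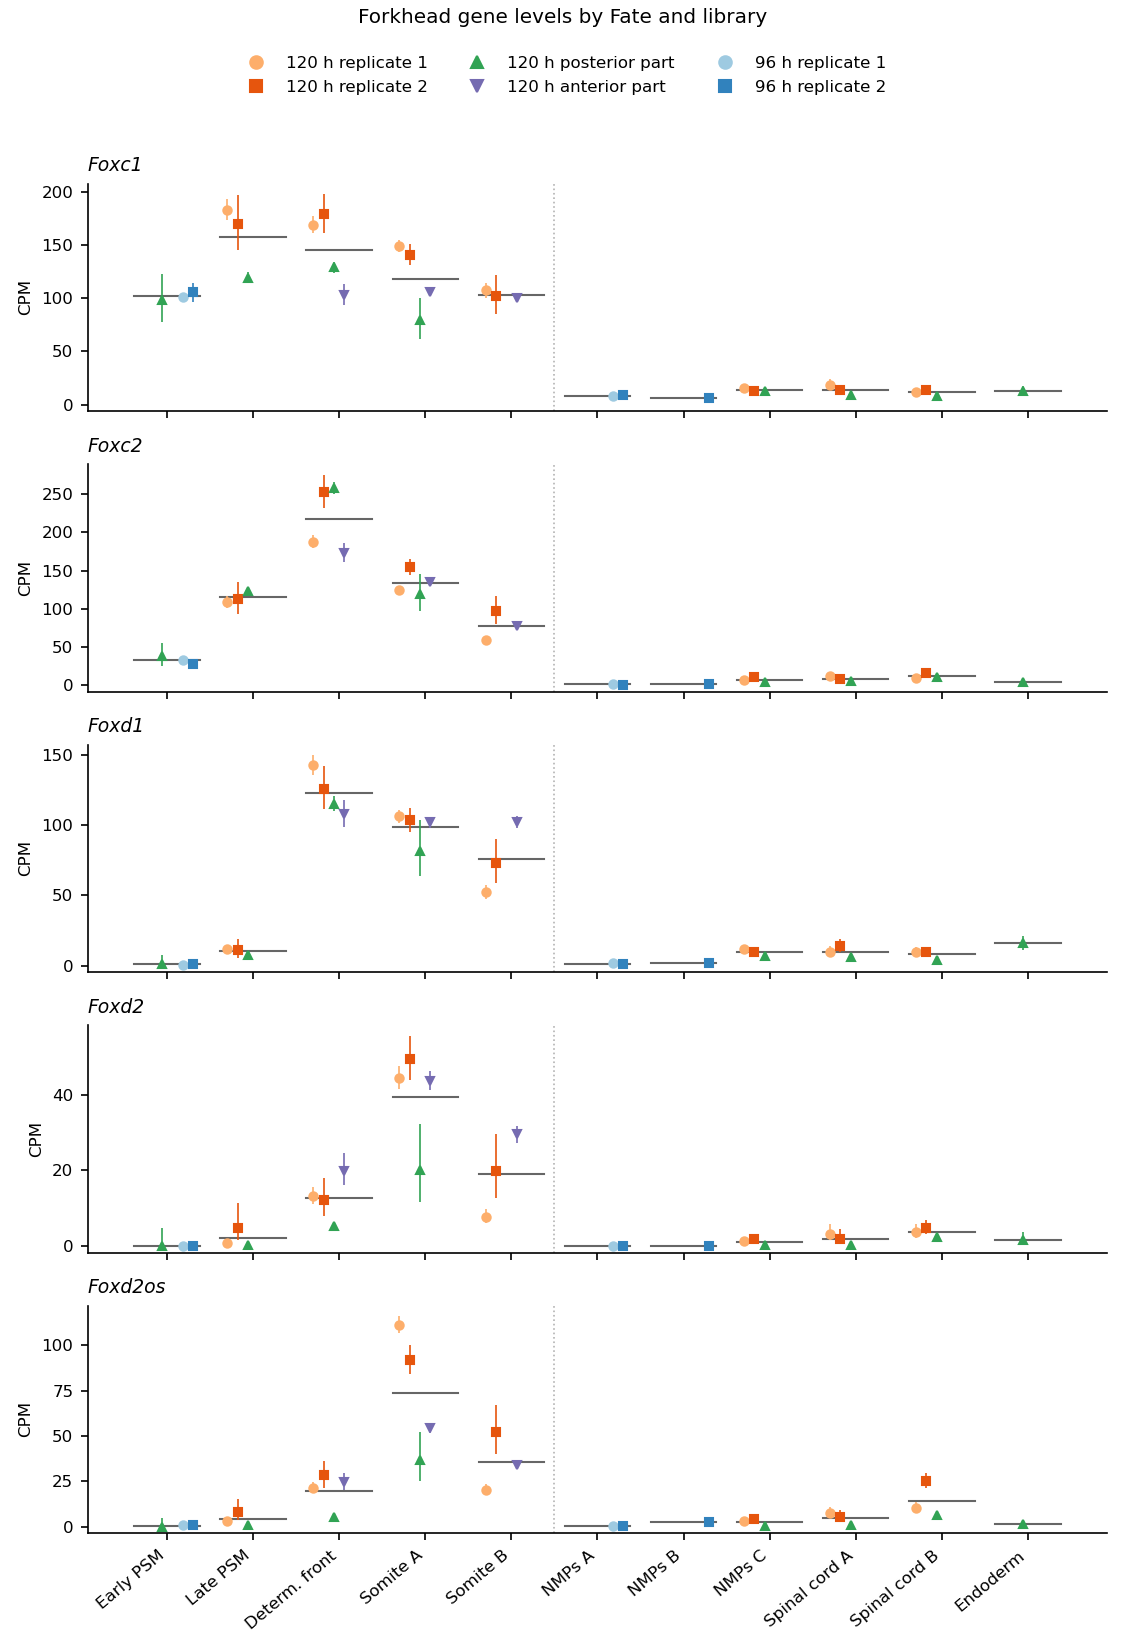
Level of each gene (CPM, linear axis) in each Fate (mesoderm Fates left of the dotted line) and library. Points are libraries with 95% counting intervals, bars are means over libraries. Foxc1 is near 100 CPM in Early PSM, where Foxd1 is at 1.31 CPM or less, and Foxd1 is at 108 CPM or more in the determination front.

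Foxc1 had 98.2 CPM in Early PSM of the posterior part, and 101.6 and 105.6 CPM in that of 96 h replicates 1 and 2. Their counting intervals overlapped, although the 3 libraries come from both times and from 3 batches. In Late PSM it had 183.6, 170.2 and 119.2 CPM in 120 h replicate 1, replicate 2 and the posterior part. The determination front had 169.3 and 179.5 CPM in 120 h replicates 1 and 2, 129.1 CPM in the posterior part and 103.4 CPM in the anterior part. Somite A had 148.9 and 140.8 CPM in the replicates, with 79.2 CPM in the posterior and 105.8 CPM in the anterior part. Somite B was close in its 3 libraries, with 107.4, 102.2 and 100.4 CPM in replicate 1, replicate 2 and the anterior part. The means over libraries ran in the order Late PSM (157.7 ± 34.0 CPM, SD, n = 3), determination front (145.3 ± 35.4, n = 4), Somite A (118.7 ± 32.3, n = 4), Somite B (103.4 ± 3.65, n = 3) and Early PSM (101.8 ± 3.68, n = 3). Each overlapped its neighbour in this order in range, so neighbouring mesoderm Fates did not differ beyond the spread over libraries. Within libraries, Somite B had 0.722 (0.669 to 0.778), 0.726 (0.596 to 0.878) and 0.949 (0.898 to 1.004) times the Foxc1 level of Somite A in replicate 1, replicate 2 and the anterior part. Somite A had 0.879, 0.785 and 0.614 times the level of the determination front in replicate 1, replicate 2 and the posterior part, with intervals below 1, and 1.02 times that level in the anterior part. The remaining Fates had 6.53 to 18.4 CPM and did not overlap them.

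Foxc2, the paralogue of Foxc1, had a graded pattern with a single peak. Early PSM had 37.99 CPM in the posterior part, and 32.8 and 28.1 CPM in 96 h replicates 1 and 2. Late PSM had 108.8, 112.5 and 123.7 CPM in 120 h replicate 1, replicate 2 and the posterior part. The determination front had 188.0 and 253.5 CPM in the replicates, 257.8 CPM in the posterior part and 173.5 CPM in the anterior part. All 4 libraries lay above every value of any other Fate, and the mean of 218.2 ± 43.7 CPM (SD, n = 4) compares with 115.0 ± 7.75 CPM in Late PSM (n = 3). Within libraries that hold both Fates, the determination front was 1.73-fold, 2.25-fold and 2.08-fold above Late PSM in replicate 1, replicate 2 and the posterior part. Somite A had 133.7 ± 15.6 CPM (n = 4), which overlapped Late PSM, and Somite B 77.8 ± 19.1 CPM (n = 3). Outside mesoderm Foxc2 stayed between 0.698 and 15.4 CPM. A further 21 Spinal cord A cells of the anterior part, under the minimum of 50 cells, had 151.0 CPM from 22 UMIs.

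The balance between the Foxc genes moved with the Fate. The share of Foxc1 among the UMIs of both is compared between Fates only. Which gene has more transcript was not tested. Foxc1 made up 72.1% of these UMIs in Early PSM of the posterior part, and 75.6% and 79.0% in 96 h replicates 1 and 2. In Late PSM it made up 62.8%, 60.2% and 49.1% in 120 h replicate 1, replicate 2 and the posterior part. In the determination front the share was 47.4%, 41.5%, 33.4% and 37.3% in replicate 1, replicate 2, the posterior and the anterior part. It was higher again in Somite B, with 64.5%, 51.3% and 56.6% in replicate 1, replicate 2 and the anterior part, and in each of these libraries the intervals of Somite B and determination front did not overlap. The narrowest gap was in replicate 2, with 44.74% to 57.7% in Somite B against 38.3% to 44.72% in the determination front. In 96 h replicate 1 the low level of NMPs A, neuromesodermal progenitors, had a Foxc1 share of 88.2% (85.2% to 90.7%), against 74.7% in the whole library.

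**Figure D2:**
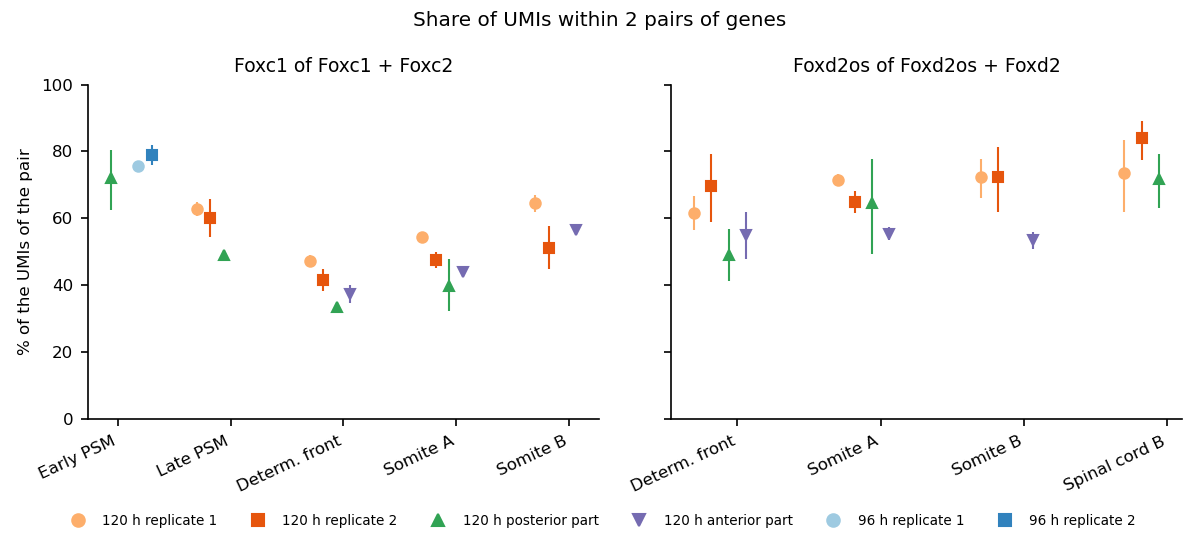
Share of Foxc1 among UMIs of Foxc1 and Foxc2 (left) and of Foxd2os among UMIs of Foxd2os and Foxd2 (right), in percent, per Fate and library with 95% exact intervals. The Foxc1 share is 72.1% to 79.0% in Early PSM and 33.4% to 47.4% in the determination front.

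Foxd1 separated the determination front from the PSM. Early PSM had 1.31 CPM in the posterior part (1 UMI), and 0.748 and 0.955 CPM in 96 h replicates 1 and 2 (36 and 5 UMIs in 2006 and 601 cells). A further 30 Early PSM cells of 120 h replicate 2, under the minimum of 50 cells, had 34.2 CPM from 10 UMIs, and with them the mean of Early PSM was 9.30 CPM in place of 1.00 CPM. Late PSM had 12.1, 10.8 and 7.37 CPM in 120 h replicate 1, replicate 2 and the posterior part. In the same libraries NMPs C, the progenitors of 120 h, had 11.8, 9.97 and 6.60 CPM and Spinal cord A had 9.67, 13.7 and 5.89 CPM. Spinal cord B had 9.77, 10.0 and 4.11 CPM, lower than Late PSM in each, with intervals apart only in the posterior part (3.15 to 5.27 CPM against 6.15 to 8.76 CPM). Whether the low level of Late PSM was expression or free RNA was not tested. The determination front had 142.3 and 125.8 CPM in the replicates, 115.2 CPM in the posterior part and 108.0 CPM in the anterior part. This was 11.8-fold (9.44 to 14.8), 11.7-fold (6.43 to 23.7) and 15.6-fold (13.1 to 18.8) above Late PSM in replicate 1, replicate 2 and the posterior part, with no overlap. Foxc1 differed by 0.922-fold, 1.05-fold and 1.08-fold across the same step.

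Past the determination front, Foxd1 had 98.2 ± 11.2 CPM in Somite A (SD, n = 4), with all 4 values from 81.6 to 106.0 CPM below the lowest of the determination front (108.0 CPM). The gap between these ranges was small. Within libraries, the ratio of Somite A to the determination front was 0.745 (0.697 to 0.797) in replicate 1 and 0.821 (0.710 to 0.953) in replicate 2. It was 0.708 (0.549 to 0.900) in the posterior part and 0.942 (0.855 to 1.039) in the anterior part. Somite B had 52.4, 73.1 and 102.1 CPM in replicate 1, replicate 2 and the anterior part, so the libraries differed by more than their counting intervals. Somite B had 0.494 (0.445 to 0.548) and 0.708 (0.559 to 0.887) times the Foxd1 level of Somite A within replicates 1 and 2, but within the anterior part the ratio was 1.00 (0.949 to 1.061). Endoderm, present with 50 cells only in the posterior part, had 15.8 CPM (11.4 to 21.4) from 42 UMIs in 24 cells, above Spinal cord A and B of that library.

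Foxd2 and Foxd2os had their highest levels later than Foxd1, although both were already higher in the determination front than in Late PSM. Foxd2 had 0 to 0.0623 CPM in Early PSM and 0.863, 4.89 and 0.3999 CPM in Late PSM of replicate 1, replicate 2 and the posterior part (6, 5 and 7 UMIs). The determination front had 13.4, 12.2, 5.23 and 19.96 CPM in replicate 1, replicate 2, the posterior part and the anterior part. The determination front was 15.5-fold (6.93 to 42.9), 2.51-fold (0.946 to 8.35) and 13.1-fold (6.08 to 33.5) above Late PSM in replicate 1, replicate 2 and the posterior part. Somite A had 44.4, 49.6, 20.1 and 43.7 CPM in the same order, and was 2.19-fold to 4.05-fold above the determination front in each of the 4 libraries. Somite B had 7.80, 19.9 and 29.6 CPM in replicate 1, replicate 2 and the anterior part, 0.176-fold, 0.402-fold and 0.676-fold the level of Somite A. The ranges of Somite A (mean 39.5 ± 13.2 CPM, SD, n = 4) and Somite B (19.1 ± 10.9 CPM, n = 3) overlapped between libraries but not within any library that held both.

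Foxd2os followed the same order of mesoderm Fates, and its determination front level was 6.79-fold, 3.61-fold and 5.89-fold that of Late PSM in replicate 1, replicate 2 and the posterior part. Somite A had 111.3, 91.8, 36.6 and 54.4 CPM in replicate 1, replicate 2, the posterior part and the anterior part, against 21.5, 28.3, 5.05 and 24.4 CPM in the determination front. It was 2.23-fold to 7.26-fold higher in Somite A in each library. Somite B had 20.4, 52.4 and 34.0 CPM in replicate 1, replicate 2 and the anterior part. Its ranges in Somite A, Somite B, the determination front and Spinal cord B overlapped each with the next. Over the 30 combinations of Fate and library, log2(CPM + 1) of Foxd2 and Foxd2os correlated with r = 0.96 (rho = 0.95), a description over points that share libraries and depth.

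Outside mesoderm, Foxd2os was highest on average in Spinal cord B. Spinal cord B, the neural Fate with the higher sum of spinal cord markers (869.2 CPM, against 603.6 CPM in Spinal cord A), had 10.4, 25.2 and 6.23 CPM in replicate 1, replicate 2 and the posterior part, while NMPs C of the same libraries had 3.19, 3.96 and 0.162 CPM. Spinal cord A had 7.25, 5.34 and 1.11 CPM in these libraries, and in replicate 1 its interval (4.65 to 10.8 CPM) overlapped that of Spinal cord B (7.76 to 13.5 CPM). Foxd2 had 3.71, 4.83 and 2.45 CPM in Spinal cord B, against 1.33, 1.91 and 0.325 CPM in NMPs C. In replicate 2 Foxd2os made up 83.9% (77.5% to 89.1%) of the UMIs of both genes in Spinal cord B and 64.9% (61.5% to 68.2%) in Somite A. In replicate 1 these shares were 73.6% (61.9% to 83.3%) and 71.5% (69.8% to 73.1%), so the difference was not present in every library.

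Single cells were compared after thinning each cell to 5000 UMIs, which left out 307 of the 26968 cells. Foxd1 was then detected in 40.7%, 43.1%, 34.0% and 39.3% of determination front cells in replicate 1, replicate 2, the posterior part and the anterior part, against 4.68%, 7.07% and 2.99% of Late PSM cells in replicate 1, replicate 2 and the posterior part. Before thinning, the shares in the posterior part were 57.6% in the determination front and 7.17% in Late PSM. Spinal cord B of the posterior part, a neural Fate, had 2.12% (1.30% to 3.26%) after and 6.26% before thinning, with a median of 14601 UMIs per cell against 12938 UMIs in the determination front and 12664 UMIs in Late PSM. The thinned shares of Late PSM (2.13% to 4.09% in the posterior part) and Spinal cord B overlapped in their intervals, and no expression is read from them. Foxc2 was detected in 53.2% to 66.7% of thinned determination front cells, against 35.8% to 40.4% of Late PSM cells and 2.19% of endoderm cells (posterior part).

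Cells were also sorted by whether they held a UMI of a Foxc gene (Foxc1 or Foxc2), of a Foxd gene (Foxd1 or Foxd2), or of both. In Early PSM 43.0% to 44.6% of thinned cells held Foxc only and at most 0.17% held both. In Late PSM 57.6% to 63.0% held Foxc only and 2.60% to 7.07% held both. In the determination front the share with both was 34.5%, 37.9%, 26.6% and 34.8% in replicate 1, replicate 2, the posterior and the anterior part, and the share with Foxd only was 9.04% to 10.5%. In Somite A the share with both was 35.5%, 40.5%, 14.7% and 32.7% in the same order, where the posterior part had only 68 cells (7.28% to 25.4%). Somite B had 12.0%, 28.6% and 25.9% in replicate 1, replicate 2 and the anterior part.

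**Figure D3:**
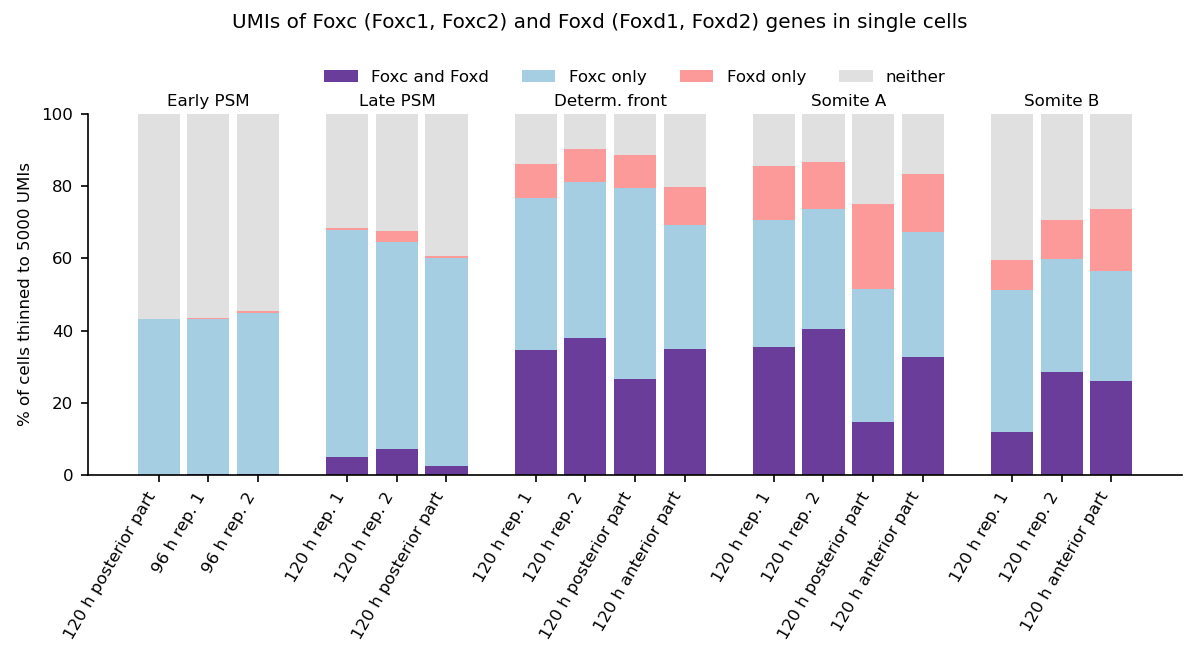
Percent of cells, thinned to 5000 UMIs, with UMIs of Foxc genes (Foxc1 or Foxc2), of Foxd genes (Foxd1 or Foxd2), of both or of neither, per mesoderm Fate and library. Cells with both are at most 7.07% in the PSM Fates and 26.6% to 37.9% in the determination front.

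Within a Fate, cells with UMIs of both genes of a pair were counted against the number that independent genes would give. In the determination front the count of thinned cells with both Foxc1 and Foxc2 was 1.07, 1.02, 1.07 and 1.10 times that for independent genes in replicate 1, replicate 2, the posterior and the anterior part. In Late PSM the ratio was 1.17, 1.18 and 1.27 in the first 3 of these libraries, from 99, 22 and 262 cells with both. In Early PSM it was 1.30 and 1.17 in 96 h replicates 1 and 2 and 0.763 in the posterior part (124, 29 and 2 cells). It ranged from 0.976 to 1.08 in Somite A and from 0.759 to 1.31 in Somite B. For Foxd1 with Foxc2 in the determination front the ratios were 1.02, 1.07, 0.92 and 1.13 in replicate 1, replicate 2, the posterior and the anterior part. For Foxd2 with Foxd2os in Somite A, the ratios were 1.17, 1.17, 1.13 and 1.21, from 117, 47, 1 and 93 cells with both. In Somite B they were 1.98, 2.07 and 1.74 in replicate 1, replicate 2 and the anterior part. These ratios are a description only, and some rest on few cells.

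In whole libraries all 5 genes were higher at 120 h than at 96 h, and in bulk sums of this kind a larger share of cells and more RNA per cell cannot be told apart. In CPM scaled by TMM (the trimmed mean of log ratios), Foxc1 had 91.5 and 61.3 CPM in replicates 1 and 2 of the 120 h libraries, against 53.0 and 27.2 CPM in those of 96 h, a log2 difference of 0.92 ± 0.37 (SE). Foxc2 had 72.8 and 65.6 CPM in 120 h libraries, against 17.9 and 6.81 CPM in 96 h libraries (log2 2.46 ± 0.46, and 3.34 without 96 h replicate 1). For Foxd1 the 120 h libraries held 55.2 and 40.0 CPM, and those of 96 h held 1.91 and 1.71 CPM (log2 4.70 ± 0.23). The groups did not overlap for any of the 5 genes. Of all genes tested, 24.4% were likewise higher without overlap and 0.58% were called higher by edgeR, and nothing is read from this count since the contrast was among the values that chose the genes. For Foxd2os the 120 h libraries held 33.3 and 29.7 CPM, and those of 96 h held 0.651 and 1.63 CPM (log2 4.95 ± 0.45, with 4.26 and 5.59 without 96 h replicates 1 and 2). Foxd2 had 1120 and 389 UMIs in 120 h libraries, against 4 and 0 UMIs in 96 h libraries, and its ratio of summed UMIs per UMI sequenced, 491-fold, had a counting interval of 191 to 1805. All 5 passed the filter on low counts, and no p is given.

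**Figure D4:**
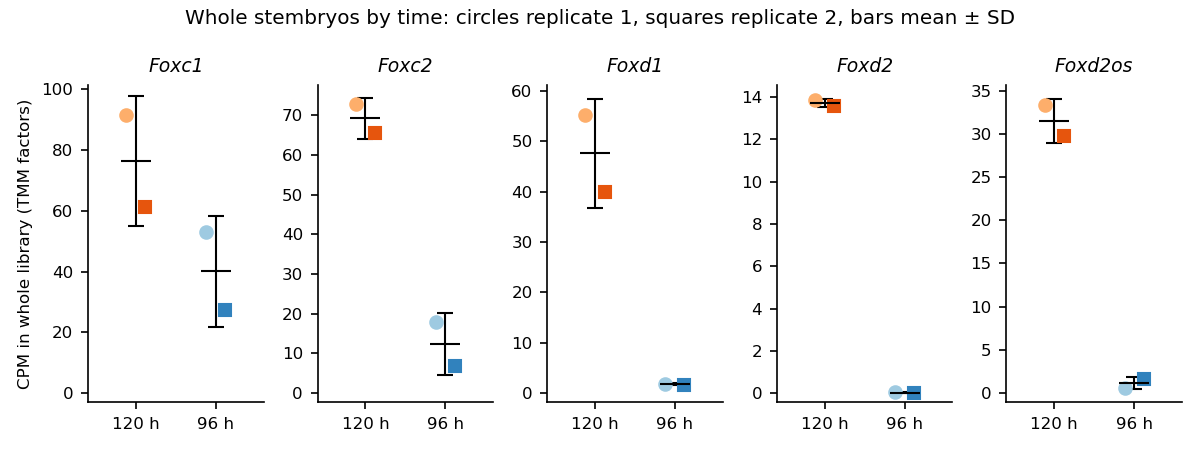
Level in whole libraries (CPM scaled by TMM, linear axes) at 120 h and 96 h. Circles are replicate 1, squares are replicate 2, and bars are mean ± SD. The times do not overlap for any gene, and Foxc1 comes closest, with 61.3 CPM as the lower value at 120 h and 53.0 CPM as the higher at 96 h.

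The Fates present also differed between the times, and whether this made the difference in level was not tested. Mesoderm Fates held 56.3% and 41.6% of cells at 120 h (replicates 1 and 2) and 42.2% and 23.0% at 96 h. At 96 h nearly all of these were Early PSM, with 2006 and 601 cells, and 85.8% and 80.8% of the Foxc1 UMIs came from it. Without TMM scaling, Foxc1 had 48.5 and 28.1 CPM in the whole 96 h libraries, where Early PSM was 40.6% and 22.7% of cells. On the same scale the level within Early PSM was 101.6 and 105.6 CPM. Small groups of more mature cells were present in 96 h replicate 1. Its 49 Late PSM cells had 187.9 CPM of Foxc1, 132.7 CPM of Foxc2 and 7.43 CPM of Foxd1. Its 27 determination front cells had 185.0 CPM of Foxc1, 260.0 CPM of Foxc2 and 82.0 CPM of Foxd1 (47 UMIs), but 0 UMIs of Foxd2, with an exact upper bound of 6.44 CPM, and 1 UMI of Foxd2os. The determination front at 120 h had 5.23 to 19.96 CPM of Foxd2. The lowest value, in the posterior part, lay below the bound of 6.44 CPM, so a difference from that library was not detectable at this depth. The intervals of the other libraries lay above the bound. Replicate 1, of the same batch, had 13.4 CPM (11.2 to 15.8), replicate 2 had 12.2 CPM and the anterior part 19.96 CPM (16.1 to 24.5). These intervals cover counting error only, and the 96 h value rests on 27 cells.

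Genes of the surrounding pathway were tested between the times with edgeR's quasi-likelihood test, which called 0.58% of 18114 genes as higher in 120 h libraries and 0.265% as lower. A fit with the replicate number, which marks the batch, as a block raised these shares to 8.89% and 8.15%. The gene lists were chosen with earlier results of these data known, so their counts and medians are no independent support. Of 15 somite genes tested, 10 rose and 0 fell (13 rose and 1, Aldh1a2, fell with the block), with a median log2 change of 4.47, against 0.016 over all genes. They included Tcf15, Meox1, Meox2, Pax3, Pax1, Uncx, Eya1, Twist1 and Dmrt2, and apart from Pax1 these had log2 changes of 2.04 (Twist1) to 7.60 (Uncx). Tcf15, a regulator of somite epithelium, had 371.3 ± 115.3 CPM at 120 h, compared with 13.0 ± 4.99 CPM at 96 h (SD, n = 2 each, log2 4.81 ± 0.40, edgeR adjusted p = 0.0252). Pax1, a factor of the sclerotome, had 903 and 236 UMIs at 120 h and 0 UMIs in both libraries at 96 h (edgeR adjusted p = 0.0213). The call of the mesenchyme factor Twist1 (log2 2.04 ± 0.24, edgeR adjusted p = 0.0464) was lost without 120 h replicate 1 (adjusted p = 0.0533) and with no normalization factors (adjusted p = 0.0696).

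Of 14 segmentation genes, 1 rose and 1 fell (3 and 6 with the block). Efnb2, an ephrin of the forming boundary, had 40.8 ± 2.27 CPM at 120 h, compared with 4.96 ± 0.37 CPM at 96 h (SD, n = 2 each, log2 3.05 ± 0.14, edgeR adjusted p = 0.0211). Hes7, the clock gene of the PSM, had 64.1 ± 8.87 CPM at 120 h, compared with 263.8 ± 28.0 CPM at 96 h (log2 -2.04 ± 0.17, edgeR adjusted p = 0.0252). Tbx6, a T-box factor of the PSM, had a log2 change of -2.54 ± 0.47 and was not called (edgeR adjusted p = 0.0956). The blocked fit called it (adjusted p = 1.21e-05), and it is named after its values were seen.

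Markers of other tissues in which Foxc or Foxd genes are known were tested as well. In the embryo Foxc2 is also a gene of vessels, Foxd1 of kidney stroma and Foxd3 of neural crest. Of 7 intermediate and lateral mesoderm genes edgeR called 0 (3 at an unadjusted p under 0.05), and with the block 1 higher and 2 lower. Of 3 endothelial genes it called 0 (0 at an unadjusted p under 0.05), and 0 with the block (2 at an unadjusted p under 0.05). Over all 18114 genes, 2739 were at an unadjusted p under 0.05, and 5749 with the block. With 0.58% of all genes called higher and 0.265% lower, 0 calls in lists this short say nothing about these tissues. Of 4 neural crest genes, Ets1, which is also a gene of mesoderm, rose (log2 3.84 ± 0.40, edgeR adjusted p = 0.0361, and 0.0542 with no normalization factors). DESeq2, which tests more of the listed genes, called 2 of 10 intermediate and lateral mesoderm genes, both lower, 0 of 4 endothelial genes and 1 of 6 neural crest genes. Over all genes it called 1137 of 24700.

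Among the other forkhead genes, 1 of 27 tested rose and 1 fell (6 and 1 with the block). Foxp2 had 10.5 ± 3.601 CPM at 120 h, compared with 0.658 ± 0.029 CPM at 96 h (log2 3.99 ± 0.34, edgeR adjusted p = 0.0260), and by Fate it was highest in Somite B, with 37.0, 40.7 and 26.7 CPM in replicate 1, replicate 2 and the anterior part. Foxb1 had 66.7 ± 2.595 CPM at 120 h, compared with 158.05 ± 1.17 CPM at 96 h (log2 -1.24 ± 0.12, edgeR adjusted p = 0.0303), a call lost without 120 h replicate 1 (0.0703) or replicate 2 (0.120). Where Foxd1 was high Foxb1 was low, with 6.35, 10.8 and 12.7 CPM in the determination front of replicate 1, replicate 2 and the posterior part, against 104.6, 117.4 and 113.3 CPM in Late PSM. Of the chromosomal neighbours, Foxl1, next to Foxc2, had its highest level in the same Fate, with 4.17, 3.77, 6.01 and 4.21 CPM in the determination front of replicate 1, replicate 2, the posterior part and the anterior part, and at most 2.45 CPM elsewhere. Foxf1, on the other side of Foxc2, reached at most 3.02 CPM, in Late PSM, and Foxf2 and Foxq1, near Foxc1, at most 0.576 and 28.6 CPM, that of Foxq1 in endoderm. Mthfsd, between Foxf1 and Foxc2, had 16.7 to 30.0 CPM in all 30 combinations, with the highest value in the determination front of the posterior part. Foxe3, next to Foxd2os, was not among the genes counted.

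The posterior and the anterior part of the dissected pool at 120 h shared the determination front (1140 and 268 cells) and Somite A (68 and 1881 cells). With 1 library each there is no test, and intervals cover counting error only. In the determination front Foxd2 had 5.23 CPM in the posterior and 19.96 CPM in the anterior part, a ratio of 0.262 (0.193 to 0.355), and Foxd2os had 5.05 and 24.4 CPM, a ratio of 0.207 (0.154 to 0.277). Foxc2 went the other way, with 257.8 CPM in the posterior and 173.5 CPM in the anterior part, a ratio of 1.49 (1.38 to 1.61), as did Foxc1 with a ratio of 1.25 (1.13 to 1.38). Foxd1 had 115.2 and 108.0 CPM, a ratio of 1.07 (0.965 to 1.18). Foxd2 and Foxd2os were also higher in anterior spinal cord cells, which were under the minimum of 50 cells. The 21 anterior Spinal cord A cells had 20.6 CPM of Foxd2 (3 UMIs) and 68.6 CPM of Foxd2os (10 UMIs), against 0.277 and 1.11 CPM posteriorly. The 16 anterior Spinal cord B cells had 7.39 and 18.5 CPM, against 2.45 and 6.23 CPM, with overlapping intervals. Whether free RNA entered the values of either part was not tested. In Somite A all 5 ratios were below 1, with 0.46 (0.267 to 0.739) for Foxd2 and 0.88 (0.715 to 1.073) for Foxc2, but the intervals of Foxc2 and Foxd1 included 1. Both parts were in batch 2 and the whole stembryos in batches 1 and 4, so that batch and dissection cannot be told apart where the parts lay below the whole stembryos, as for Foxd2os in Somite A (36.6 and 54.4 CPM in the parts, 111.3 and 91.8 CPM in whole stembryos).

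**Figure D5:**
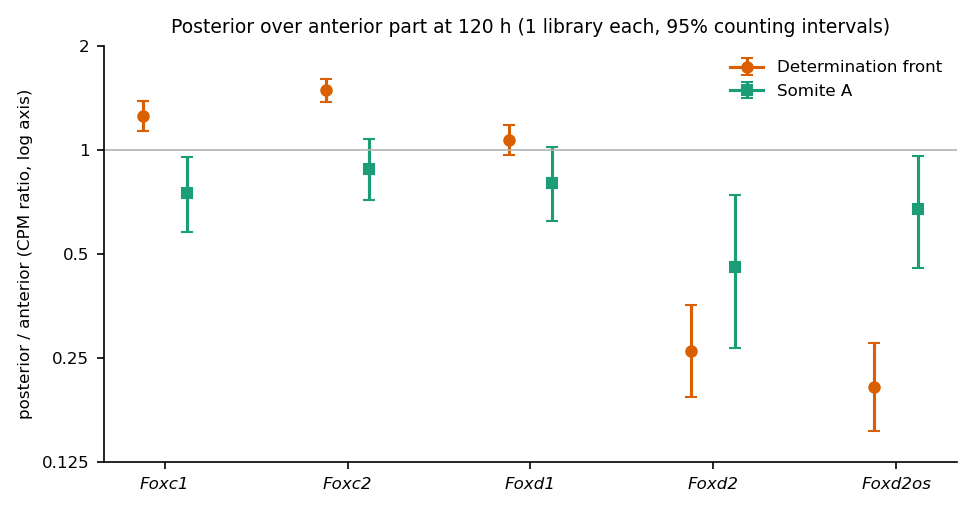
Ratio of the CPM of the posterior part to that of the anterior part (log axis) in the determination front and in Somite A at 120 h, with 95% counting intervals, 1 library each. In the determination front Foxd2 and Foxd2os lie at 0.262 and 0.207, and Foxc2 at 1.49.

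The genes most like each member were ranked by Pearson r of log2(CPM + 1) over the 30 combinations, among 7835 genes with a mean of at least 10 CPM. Foxc1 was most like Zcchc24 (r = 0.95), Foxc2 (0.93), Cald1, Frmd6 and Pdgfra, the PDGF receptor of mesoderm (0.90 each). Foxc2 was most like Prrx2 (0.95), a homeobox gene of mesenchyme, then Meox1 (0.93), Foxc1 (0.93), Tcf15 (0.92) and the forkhead gene Foxp1 (0.91). Foxp1 had its highest level in the same Fate, with 289.8, 318.0, 358.3 and 243.8 CPM in the determination front of replicate 1, replicate 2, the posterior part and the anterior part. Foxd1 was most like Efnb2 (0.95), Lhfpl2 (0.94), Halr1, Bmp3 and Pax3 (0.93 each). Foxd2 was most like Foxd2os (0.96), Ets1 (0.94), Bmp3 (0.94), Depdc7 (0.93) and the linker histone gene H1f0 (0.92). Foxd2os was most like Ets1, Pkdcc, Depdc7, Pax3 and Gm15050 (0.91 each). Foxd2, itself under the 10 CPM minimum, was not eligible for that list. The combinations share libraries and depth, so these values carry no p.

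Among the members, r was 0.93 for Foxc1 with Foxc2 and 0.91 for Foxd1 with Foxd2. Across the 2 families it was lower, 0.73 for Foxc2 with Foxd1, 0.56 for Foxc1 with Foxd1 and 0.46 for Foxc1 with Foxd2os.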

How the data were processed

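Stembryos were pooled, dissociated and sequenced as 10x single-cell RNA libraries. The authors deposited 1 table of UMI counts per gene and cell, and an annotation with the total count, Fate, batch and chemistry of each cell. Per the submitters' processing notes, Cell Ranger 6.0 (genome mm10) and Seurat 4.0.2 were used. The study's methods state that cells with extreme UMI counts or mitochondrial shares were removed, that this step was also meant to take out doublets, and that a modified Ensembl annotation was used. No doublet caller was run, and a limit of 1.5 times the mean UMI count was tried instead, which kept 24802 cells. The totals of all 26968 cells equalled the annotation.

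Members and gene lists were chosen with earlier results of these data known. 1 listed gene is not reported here by name. Named genes were the members, up to 10 called genes of each list by log2 change, the 5 genes most like each member, and chromosomal neighbours. UMIs were summed per Fate and library (at least 50 cells) or per library. The 4 whole libraries were fitted with edgeR 4.0.16 in R 4.3.3 (TMM, filterByExpr, quasi-likelihood test, Benjamini-Hochberg adjustment over 18114 genes, called under 0.05). P-values measure the spread between these samples, which may be technical. Equal replicate numbers mark a shared batch. Differences between replicates at 96 h and at 120 h correlated with r = 0.65 over 18114 genes. The main fit had no term for this pairing, so its spread between samples includes differences between batches. Only the replicate block took the pairing into account. Alternatives were DESeq2 1.42.0, no normalization factors, no filter, the replicate block, leaving out each library, other minimums of cells, pooled cells, thinned cells, and other measures of likeness.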

Additional observations from a re-analysis of the deposited data

How the results depend on the processing

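Leaving out each library moved the count of genes called between the times, 153, to between 100 and 399. The replicate block gave 3088 calls, no filter on low counts 1199 and DESeq2 1137, while no normalization factors gave 122 and the limit of 1.5 times the mean UMI count 173. Of the listed genes, 15 were called, 34 with the replicate block, 30 with no filter, 30 with DESeq2, and 14 to 23 when a library was left out. The block changed no sign of the 5 members. Their log2 changes stayed positive under all 45 alternatives, and Foxc1 ranged from 0.52 without 96 h replicate 2 to 1.48 without 96 h replicate 1, Foxc2 from 1.94 to 3.34 and Foxd2os from 5.59 to 4.26 in the same order. The Fate with the highest mean held under every alternative for Foxc2, Foxd1, Foxd2 and Foxd2os. For Foxc1 it was the determination front and not Late PSM with cells pooled over libraries (141 and 139 CPM) and without the anterior part (159 and 158 CPM). The 55 levels by Fate were set against 415 alternatives, some of which leave a level unchanged. Of these, 396 stayed within the spread between libraries, and the 19 others were outside each gene's highest Fate. Where a Fate had 1 library, the spread was taken from the counting interval. Foxc2 in Spinal cord A, for example, had 8.35 CPM, against 35.2 CPM with a minimum of 20 cells. That minimum added 38 cells of 96 h replicate 2 with 0 UMIs and 21 cells of the anterior part with 151.0 CPM. What moved the other levels was not tested. Lists of likeness depended on the measure, with 1 to 5 of the top 5 genes shared. Depth limits Foxd2, with 4 UMIs in all at 96 h, and 1 library per part limits the posterior and anterior values.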
